A study of Homo sapiens with 24 samples.

Results

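TOR3A encodes torsin-3A, 1 of the torsin ATPases. It was followed here with 3 further torsin genes (TOR1A, TOR1B and TOR2A) and with the genes of their membrane cofactors, TOR1AIP1 and TOR1AIP2, so that 6 of the 58138 gene names in the count tables are described. TOR3A was chosen because its RNA was lower in the groups given RPRD2 siRNA, and the other 5 were chosen because they belong to the same family or bind it. All 6 genes had enough reads to be tested in both cell lines.

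Torsins are AAA+ ATPases, enzymes that use ATP to remodel other proteins, and they lie in the lumen of the endoplasmic reticulum (ER) and of the nuclear envelope that is continuous with it. They need a membrane protein to become active: LAP1, the product of TOR1AIP1, sits in the inner nuclear membrane, and LULL1, the product of TOR1AIP2, sits in the ER. TOR1A encodes torsinA, the protein altered in DYT1 dystonia, TOR1B encodes its close relative torsinB, and TOR3A is also known under a name that describes it as an interferon-responsive gene.

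The study lowered the mRNAs of RPRD1A, RPRD1B and RPRD2, proteins that bind the C-terminal domain of RNA polymerase II, to ask how they affect the amount of RNA in the cell. HEK293T cells, a human embryonic kidney line, received control siRNA (CTRL) or siRNAs labelled RPRD1A_KD, RPRD1B_KD, RPRD2_KD, RPRD1A_RPRD1A_KD, RPRD1A_RPRD2_KD, RPRD1B_RPRD2_KD or RPRD1A_RPRD1B_RPRD2_KD. Every HEK293T group was transfected, the control group included. The Flp-In T-REx 293 line, derived from 293 cells and carrying an integration site and a tetracycline-controlled switch, was analysed as the parent line (FLP) and as a line labelled RPRD1B_FL, each without and with tetracycline (FLP_TET, RPRD1B_FL_TET). Each of the 12 groups has 2 libraries, and the label gives 48 h for both siRNA and tetracycline. The labels do not say how many siRNAs were used per gene, whether the RPRD1B_FL line is a single clone, what FL stands for, or whether the 2 libraries of a group came from separate cultures, so the p-values below measure only the spread between these libraries. The group written RPRD1A_RPRD1A_KD carries the same gene name in both places, and its RPRD1B mRNA stood at 39.1% of the control level.

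Libraries held 1817246 to 3531106 counts in genes, and 3 counts, the floor used here, equal 0.85 to 1.651 CPM. CPM are gene counts scaled to a common library size, and reads come from the 3′ end of each transcript. CPM are used here to compare libraries for the same gene, and no test compares the levels of different genes. The targeted mRNAs were lower in the libraries named for them, but not all of these differences passed the test. RPRD1B stood at 29.3% of CTRL in RPRD1B_KD and passed the edgeR test in none of the groups named for it. Its unadjusted edgeR p was 0.000559 in RPRD1B_KD, 0.000595 in RPRD1B_RPRD2_KD and 0.00319 in RPRD1A_RPRD1B_RPRD2_KD. A fall of that size was thus not always called against CTRL. RPRD1A was also at 58.5% of CTRL in RPRD1B_KD, 54% in RPRD2_KD and 47.9% in RPRD1B_RPRD2_KD, groups not named for it, none of which passed the edgeR test (unadjusted p = 0.00286, 0.00107 and 0.000213, adjusted p = 1, 1 and 0.629). RPRD2 stood at 97.7 ± 2.3 CPM (SD, n = 2) in CTRL and at 32.6% of that level in RPRD2_KD, 48.5% in RPRD1A_RPRD2_KD, 43% in RPRD1B_RPRD2_KD and 61% in RPRD1A_RPRD1B_RPRD2_KD. Over all 8 libraries given RPRD2 siRNA against the 8 not given it, RPRD2 fell by 1.14 on the log2 scale (SE 0.09, edgeR quasi-likelihood test with Benjamini-Hochberg adjustment, adjusted p = 6.583e-06). Against CTRL alone it passed the edgeR test in RPRD2_KD and in RPRD1B_RPRD2_KD but not in RPRD1A_RPRD2_KD (adjusted p = 0.121) or RPRD1A_RPRD1B_RPRD2_KD (adjusted p = 0.887), and both calls were lost when single libraries were left out, with an edgeR adjusted p of up to 0.171 and 0.999. The second RPRD1A_RPRD2_KD library stood apart from the other 15 HEK293T libraries, at -50.7 on the first principal component, which carried 29.1% of the variance, against -2.4 to 11.4 for the rest. The 8 markers of 293 cells checked here had counts in every library, with a summed level of 215 to 301 CPM in HEK293T and 631 to 813 CPM in Flp-In cells. Some reached the floor or lay under it: PAX2 had down to 1 count and NEFL and KRT8 down to 3 in HEK293T, and NEFM down to 2 in Flp-In. VIM and LIN28B had the highest levels in HEK293T. NEFM went against the sum, with 4.58 to 20.4 CPM in HEK293T and 0.762 to 3.8 CPM in Flp-In. LIN28B also did, with 56.7 to 95.8 CPM in HEK293T and 35.3 to 64.5 CPM in Flp-In, though its ranges overlapped. Of 8 markers of other cell types, PTPRC, CD3E, COL1A2 and CDH5 had no counts in any HEK293T library. ALB and PECAM1 each had counts in 3 of the 16, up to 1 and 2 counts, GFAP had counts in 12 of 16, up to 5, and COL1A1, a collagen of fibroblasts, had 7 to 42 counts. Their summed level was 4.74 to 15.8 CPM in HEK293T libraries, and their part in the results was not tested.

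TOR3A lies on chromosome 1 at chr1:179081377-179098023 on the forward strand (GRCh38, GENCODE release 29), 28.6 Mb beyond RPRD2 on the same arm. TOR1AIP2 (chr1:179839967-179877803, reverse strand) and TOR1AIP1 (chr1:179882042-179925000, forward strand) lie 742 kb further on, back to back, with 4239 bases between their starts. TOR1B (chr9:129803153-129811281, forward strand) and TOR1A (chr9:129812944-129824134, reverse strand) are neighbours on chromosome 9 whose 3′ ends face each other across 1663 bases. TOR2A (chr9:127731524-127735317, reverse strand) overlaps the 3′ end of TTC16, which runs on the other strand to base 127731600. The strand setting of the counting is not given in the sources used here, so TOR2A counts are reported as uncertain with respect to reads of TTC16. TOR1AIP1 also overlaps the antisense long noncoding gene AL353708.3 at its start, away from the 3′ end that these libraries read.

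The promoters of the 2 genes on chromosome 1 with the most reads, TOR3A, which was lower with RPRD2 siRNA, and TOR1AIP2, whose difference did not pass the test, are shown for comparison. Each sequence runs from 250 bases before to 50 bases after the transcription start listed by RefSeq (GRCh38.p14), 5′ to 3′ on the gene's own strand, with matches to the motifs named below in capitals. The TOR3A sequence is chr1:179081820-179082119, forward strand, and the TOR1AIP2 sequence is chr1:179877754-179878053, reverse strand.
TOR3A: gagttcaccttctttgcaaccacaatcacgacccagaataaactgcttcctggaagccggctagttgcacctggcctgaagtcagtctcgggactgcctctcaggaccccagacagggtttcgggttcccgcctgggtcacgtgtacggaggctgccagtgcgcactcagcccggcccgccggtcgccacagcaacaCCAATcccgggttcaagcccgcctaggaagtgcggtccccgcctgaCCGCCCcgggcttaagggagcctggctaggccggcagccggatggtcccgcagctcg
TOR1AIP2: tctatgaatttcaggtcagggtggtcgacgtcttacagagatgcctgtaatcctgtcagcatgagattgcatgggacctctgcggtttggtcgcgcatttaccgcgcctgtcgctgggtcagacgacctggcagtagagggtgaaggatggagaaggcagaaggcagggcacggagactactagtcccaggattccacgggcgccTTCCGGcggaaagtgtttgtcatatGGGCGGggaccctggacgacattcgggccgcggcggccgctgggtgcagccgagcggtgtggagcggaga

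The table of promoters held 4 of the 6 genes (TOR2A, TOR3A, TOR1AIP1 and TOR1AIP2). The TOR3A sequence is 65% G or C with 22 CpG dinucleotides, and the TOR1AIP2 sequence is 60.7% G or C with 24, against medians of 58.7% and 14 over 35116 promoters of the same length. Both strands were searched for the CCAAT box (CCAAT), the GC box (GGGCGG), the TATA box (TATAAA), the core of the interferon-stimulated response element, the ETS core (CCGGAA) and the NRF1 core. TOR3A held 1 CCAAT box, starting 53 bases before the start, and 1 GC box on the reverse strand, written CCGCCC, starting 7 bases before it. TOR1AIP2 held 1 GC box, starting 20 bases before the start, and 1 ETS core on the reverse strand, written TTCCGG. TOR2A held 1 CCAAT box and 1 GC box, and the TOR1AIP1 window held none of the 6 motifs. Of all promoters, 34.6% held a CCAAT box, 45% a GC box, 11.5% a TATA box, 3.57% the interferon element core, 17.2% the ETS core and 5.78% the NRF1 core. No match in any of the 4 windows overlapped another, and a match is a description of letters only.

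Among the HEK293T groups, TOR3A RNA was highest with control siRNA and lowest in RPRD2_KD. In CTRL its level was 296 and 277 CPM. The 2 RPRD2_KD libraries stood at 154 and 139 CPM, 51.1% of the control mean. The level was thus about 1 unit lower on the log2 scale (log2 fold change -0.96, SE 0.16), and the control and RPRD2_KD libraries did not overlap. TOR3A was selected on these values, so they are a description and carry no test.

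The other groups that included RPRD2 siRNA lay close to RPRD2_KD. TOR3A measured 155 and 165 CPM in RPRD1A_RPRD2_KD (55.8% of CTRL). It measured 167 and 148 CPM in RPRD1B_RPRD2_KD (54.9%). The group RPRD1A_RPRD1B_RPRD2_KD had 205 and 162 CPM (64%), and its first library was the highest of the 8. Relative to CTRL the log2 fold changes were -0.86 in both double groups and -0.64 in the triple group, each with SE 0.16. The triple group's value depended on which library was used, from -0.471 without its second library to -0.819 without its first.

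Groups without RPRD2 siRNA kept more TOR3A RNA. RPRD1B_KD libraries had 269 and 251 CPM, a mean of 260 ± 12 (SD, n = 2). RPRD1A_KD libraries had 265 and 221 CPM, a mean of 243 ± 31. RPRD1A_RPRD1A_KD libraries had 229 and 216 CPM, a mean of 222 ± 9.5. All 6 of these libraries lay below both control libraries, at group means of 90.7%, 84.7% and 77.6% of CTRL. The fitted log2 fold changes were -0.14, -0.24 and -0.36, each with SE 0.16, and the middle value ranged from -0.386 to -0.105 when 1 RPRD1A_KD library was left out. The order of the group means was CTRL, RPRD1B_KD, RPRD1A_KD, RPRD1A_RPRD1A_KD, RPRD1A_RPRD1B_RPRD2_KD, RPRD1A_RPRD2_KD, RPRD1B_RPRD2_KD and RPRD2_KD. Neighbours in that order overlapped in their libraries except CTRL with RPRD1B_KD and RPRD1A_RPRD1A_KD with RPRD1A_RPRD1B_RPRD2_KD.

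**Figure D1:**
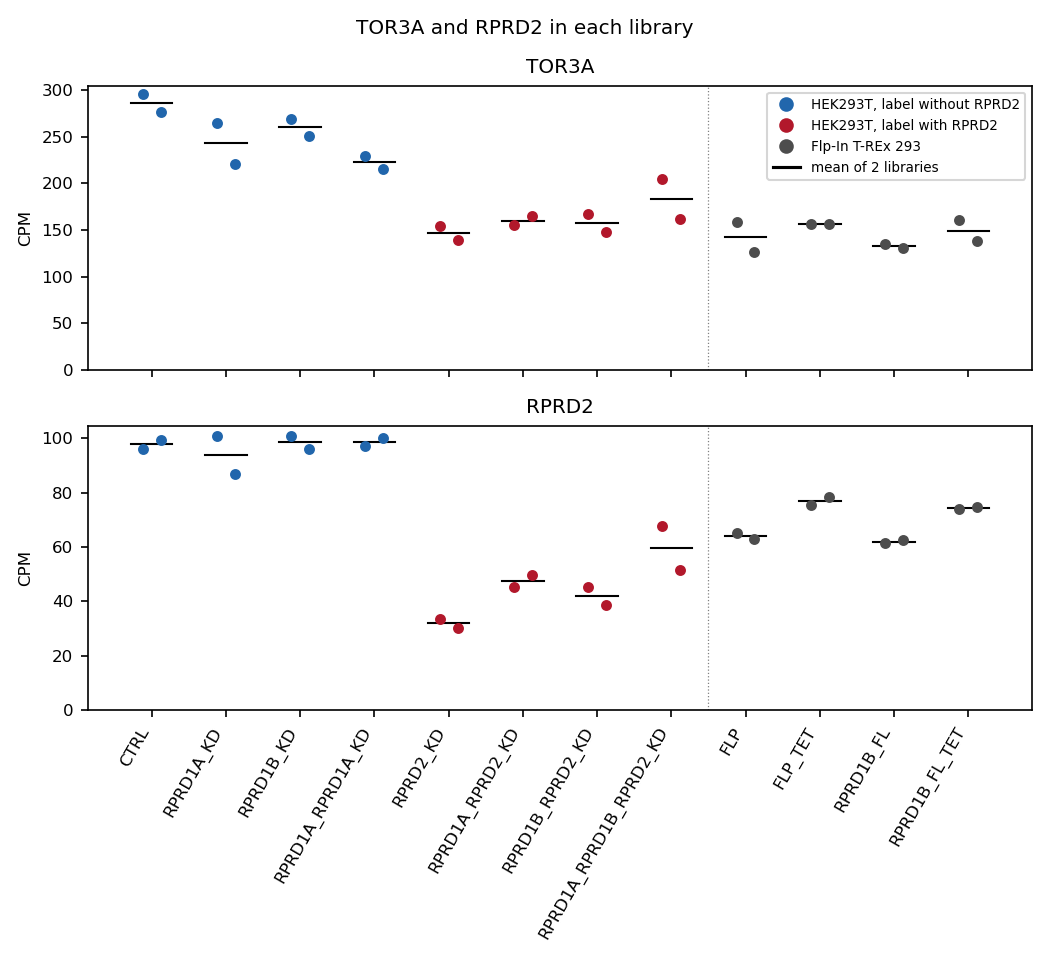
TOR3A and RPRD2 levels in CPM (vertical axes, linear from 0) in each of the 24 libraries, by group. Points are libraries and bars the mean of 2; the 8 HEK293T libraries whose label names RPRD2 lie at 139 to 205 CPM of TOR3A, below the other 8 at 216 to 296 CPM, while Flp-In libraries lie at 126 to 161 CPM.

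Taken as sets, the 8 libraries given RPRD2 siRNA held 139 to 205 CPM of TOR3A (median 158), and the 8 not given it held 216 to 296 CPM (median 258). The sets did not overlap, so it was fixed in advance that they would not overlap within a replicate number either. Libraries numbered 1 had 154 to 205 CPM with and 229 to 296 CPM without RPRD2 siRNA. Those numbered 2 had 139 to 165 CPM with and 216 to 277 CPM without it. The libraries nearest the boundary were the first of RPRD1A_RPRD1B_RPRD2_KD, at 205 CPM, and the second of RPRD1A_RPRD1A_KD, at 216 CPM. The pooled log2 fold change was -0.65 (SE 0.08), a fold of 0.639, the 58th lowest of 11834 genes tested. Leaving out any 1 HEK293T library kept it between -0.694 and -0.606, and without the library that stood apart it was -0.648. Of the 11834 genes, 2 were lower in all 8 libraries given RPRD2 siRNA than in all 8 not given it (0.0169%), RPRD2 and TOR3A, and since TOR3A was chosen for this pattern the count is given only as background. No library of either set came from fewer than 294 TOR3A reads.

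The difference in TOR3A was also laid out by the siRNA it was added to. Adding RPRD2 siRNA to control left 51.4% of TOR3A and 32.8% of RPRD2. Between RPRD1B_KD and RPRD1B_RPRD2_KD, 60.7% of TOR3A and 42.9% of RPRD2 were left. Between RPRD1A_KD and RPRD1A_RPRD2_KD, 64.9% of TOR3A and 49.9% of RPRD2 were left. Between RPRD1A_RPRD1A_KD and RPRD1A_RPRD1B_RPRD2_KD, the shares were 82.4% and 60.1%. All of these values were used in choosing TOR3A, so they carry no test and their order is not read as a relation. The ratios come from the fitted log2 fold changes, which for TOR3A were -0.96, -0.72, -0.62 and -0.28 with SE 0.16 each, so that neighbouring values such as -0.72 and -0.62 differ by less than their SE. RPRD1A mRNA was also lower in RPRD2_KD, as given above. The last of the 4 rests on the group whose label repeats RPRD1A.

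Within the sets, TOR3A and RPRD2 were also set side by side library by library, as a description, since the HEK293T values of TOR3A are those it was chosen on. In each of the 4 groups given RPRD2 siRNA, the library with more RPRD2 also had more TOR3A, as in RPRD1A_RPRD1B_RPRD2_KD with 67.8 and 51.4 CPM of RPRD2 beside 205 and 162 CPM of TOR3A. Over those 8 libraries Pearson's r of log2(CPM + 1) was 0.91, Spearman's rho was 0.88, and r was 0.69 without the 2 libraries farthest from the median of RPRD2. Among the 8 libraries not given RPRD2 siRNA, where RPRD2 varied only from 86.8 to 101 CPM, r was 0.36, rho was 0.07, and r without the 2 farthest was -0.25. In the 8 Flp-In libraries r was 0.66, rho was 0.52, and r without the 2 farthest was 0.57. The 8 libraries of a set are 4 groups of 2 and both genes share each library's scaling, so the libraries are not exchangeable and no p is given. Each replicate number holds only 4 libraries of a set, too few for a value within it.

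**Figure D2:**
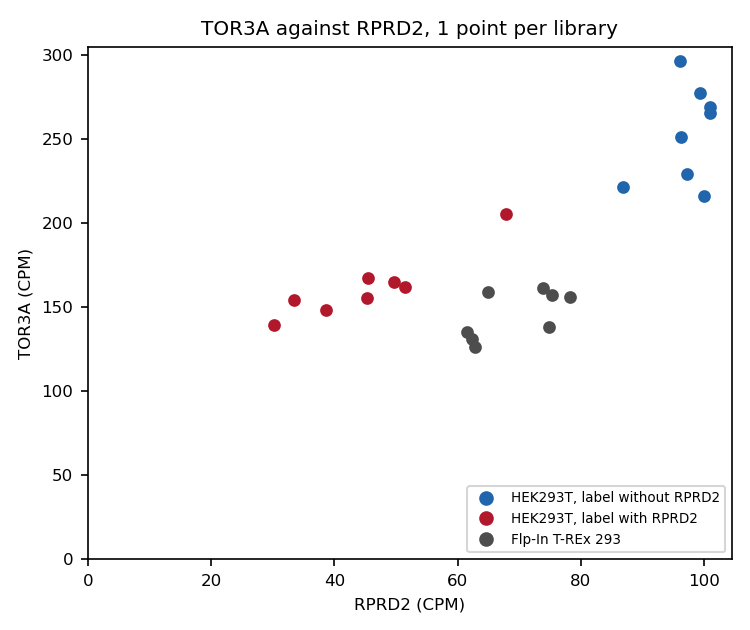
TOR3A (vertical axis, CPM) against RPRD2 (horizontal axis, CPM) with 1 point per library, both axes linear from 0. The libraries given RPRD2 siRNA run from 139 CPM of TOR3A at the lowest RPRD2 to 205 CPM at the highest, and Flp-In libraries carry 61.6 to 78.3 CPM of RPRD2 with 126 to 161 CPM of TOR3A.

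TOR1A and TOR1B, which encode the best studied torsins, had no difference with RPRD2 siRNA that passed the test. TOR1A ranged from 29.8 to 34.9 CPM (median 33.7) with RPRD2 siRNA and from 23.4 to 36.7 CPM (median 29.9) without it. The ranges overlapped, and the pooled log2 fold change was 0.15 (SE 0.12, 95% interval -0.10 to 0.39, edgeR adjusted p = 1). TOR1B ranged from 12.2 to 16.5 CPM with RPRD2 siRNA and from 10.7 to 19.5 CPM without it, with a median of 14.2 CPM in both sets. Its pooled log2 fold change was 0.03 (SE 0.13, 95% interval -0.25 to 0.30, edgeR adjusted p = 1). The control libraries of TOR1B stood at 15.6 and 19.5 CPM, and all 7 silenced groups had a lower mean, from 64.7% to 86.3% of CTRL. The lowest was RPRD1A_RPRD1A_KD, at 10.7 and 12 CPM (log2 fold change -0.62, SE 0.27, edgeR unadjusted p = 0.0335, adjusted p = 1), so that difference did not pass the test. TOR1B had 21 to 44 reads in a HEK293T library, which limits its precision.

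TOR2A, which encodes torsin-2A, was the member with the fewest reads, 9 to 56 in a HEK293T library. It ranged from 5.02 to 18.9 CPM (median 7.22) with RPRD2 siRNA and from 4.58 to 13.7 CPM (median 7.03) without it, and its pooled log2 fold change was 0.05 (SE 0.25, 95% interval -0.49 to 0.58, edgeR adjusted p = 1). The highest library was the second of RPRD1A_RPRD2_KD, the one that stood apart, and without it the pooled value was -0.096. In the comparison of RPRD1A_RPRD2_KD with CTRL, TOR2A was at 0.46 (SE 0.47, edgeR adjusted p = 0.859) with that library and at -0.125 without it, so neither direction held. Across genes, the deviations of that library from the HEK293T mean correlated with transcript GC content (Spearman's rho 0.45), and the TOR2A transcript is 59.5% G or C. TOR2A was also not called with a correction for GC content. The part of GC content in its value was not tested beyond that.

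TOR4A, the remaining human torsin gene and not part of the selection, is given for comparison. It had 16.7 and 10.2 CPM in CTRL and a lower mean in each of the 7 silenced groups, with log2 fold changes from -0.42 to -1.36. The largest was in RPRD1B_KD, at 8.35 and 2.02 CPM (SE 0.51, edgeR unadjusted p = 0.017, adjusted p = 1). None of these passed the test, and with 6 to 30 reads in a HEK293T library the level of TOR4A was poorly measured. The 7 differences share the same 2 CTRL libraries, so they are not separate results. The pooled log2 fold change of TOR4A with RPRD2 siRNA was -0.05 (SE 0.27).

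The cofactor genes also had no difference that passed the test. TOR1AIP2, which encodes the ER cofactor LULL1, had 141 and 146 CPM in CTRL, 136 and 153 CPM in RPRD2_KD and 122 to 153 CPM over all libraries given RPRD2 siRNA, against 130 to 152 CPM in those not given it. With 240 to 440 reads in a HEK293T library it was measured about as deeply as TOR3A, and its pooled log2 fold change was -0.06 (SE 0.08, 95% interval -0.23 to 0.11, edgeR adjusted p = 1). TOR1AIP1, which encodes the nuclear envelope cofactor LAP1, ranged from 21.6 to 32.2 CPM with RPRD2 siRNA and from 19.6 to 34.1 CPM without it. Its pooled log2 fold change was 0.02 (SE 0.13, 95% interval -0.25 to 0.28, edgeR adjusted p = 1). The intervals of both genes lie above the TOR3A value of -0.65, as do those of TOR1A, TOR1B and TOR2A. TOR3A was selected on that value, so no contrast is drawn from this.

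**Figure D3:**
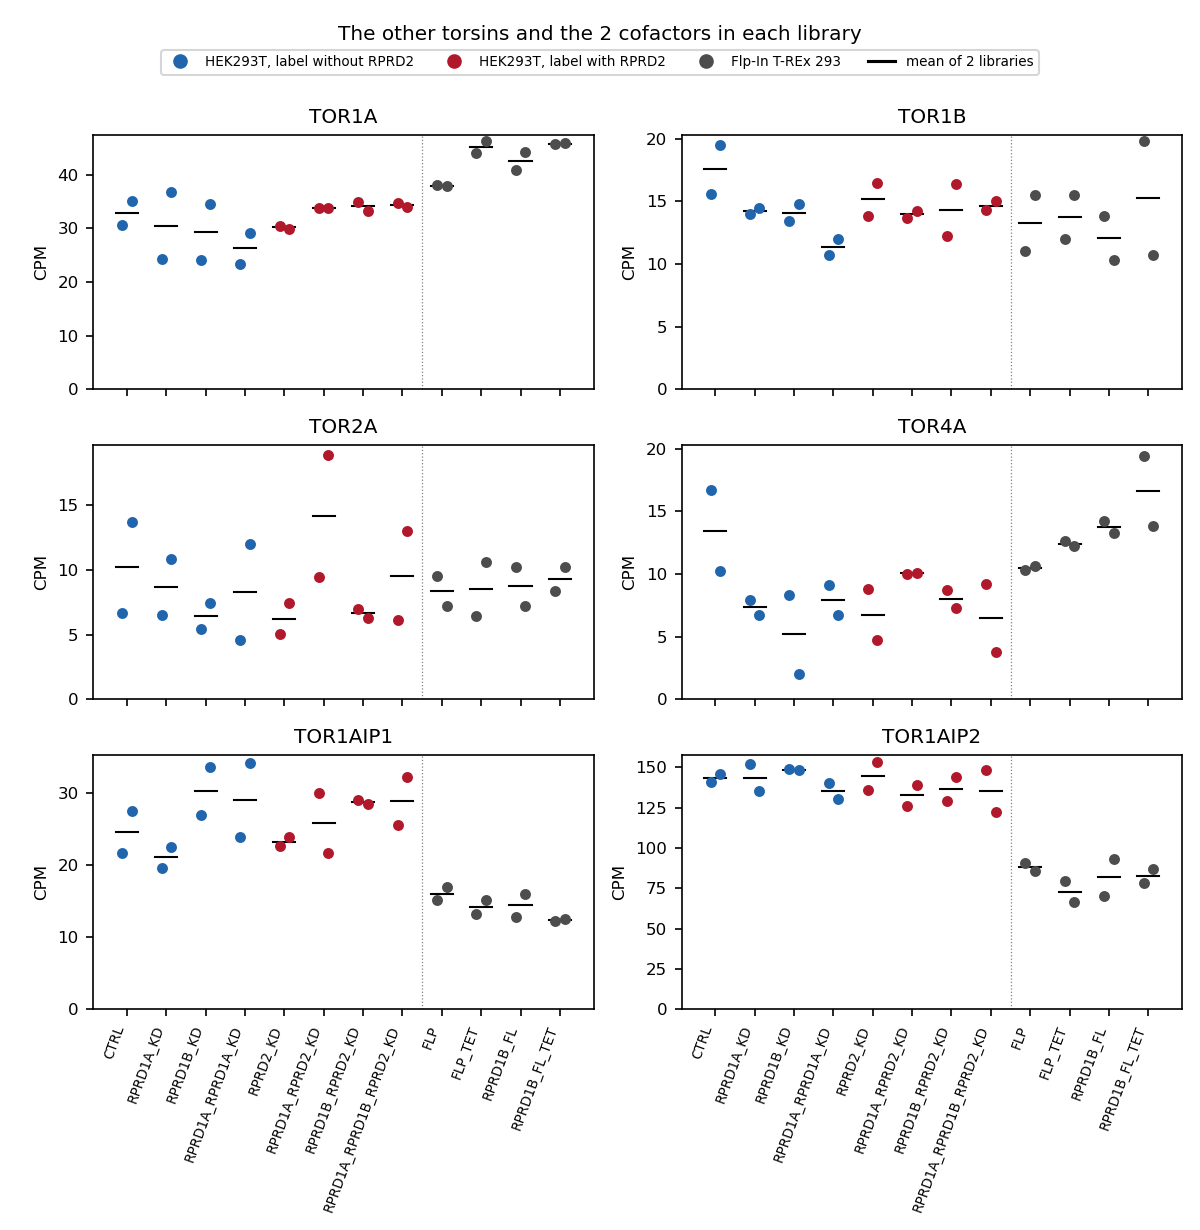
Levels in CPM (vertical axes, linear from 0) of TOR1A, TOR1B, TOR2A, TOR4A, TOR1AIP1 and TOR1AIP2 in each library, with the mean of each group of 2 as a bar. In each panel the HEK293T libraries with and without RPRD2 in the label overlap, as for TOR1AIP2 at 122 to 153 and 130 to 152 CPM, and the highest TOR2A value, 18.9 CPM, is the second RPRD1A_RPRD2_KD library.

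Counted together, 0 of the 5 members other than TOR3A passed the test in the pooled comparison, and 0 passed in any of the 7 silenced groups against CTRL. In the pooled comparison 2 of all 11834 genes were called (0.0169%). These were RPRD2, the siRNA target, and TOR3A, whose call is no evidence because it was chosen on these values. Against CTRL the share called was 0.00845% in RPRD1A_KD, RPRD1B_KD, RPRD2_KD and RPRD1A_RPRD2_KD, and 0.0169% in RPRD1A_RPRD1A_KD, RPRD1B_RPRD2_KD and RPRD1A_RPRD1B_RPRD2_KD. An siRNA target was among the genes called in each of these groups except RPRD1B_KD. A count of 0 among 5 genes is thus near the background. At an unadjusted edgeR p under 0.05 there was 1 such value among these comparisons, that of TOR1B above, beside 3.86% of the values over all genes tested. DESeq2 called 0 of the 5 and gave 0 unadjusted values under 0.05 for them. Over all 11834 genes DESeq2 called 1 to 5 in a comparison. The 7 comparisons share the CTRL libraries. In simulated data of this design, 98% of genes changed 2-fold (1 on the log2 scale) were called in the pooled comparison over 11642 genes, with 15 unchanged genes called as well. Changed genes were drawn from those with a mean of at least 10 CPM, which TOR2A did not reach. The simulation changed 100 genes by 1 and 100 by 2 on the log2 scale, more than were called here, which makes the adjustment less strict. It held no effect of replicate number and no library that stood apart, so 98% can be too high for these data.

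**Figure D4:**
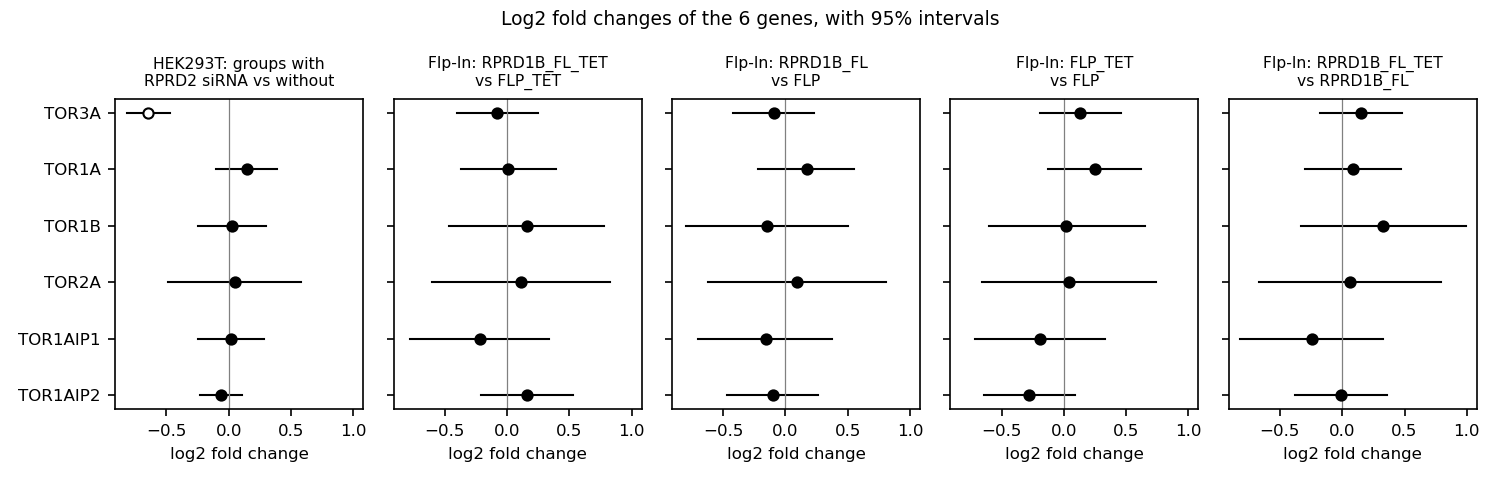
Log2 fold changes (horizontal axes) of the 6 genes with 95% intervals as lines, in the pooled HEK293T comparison and in 4 Flp-In comparisons. The open point is TOR3A at -0.65 in HEK293T cells, where it was selected and its test is not used. The intervals of the tested genes, TOR3A in Flp-In cells among them, include 0. The line for TOR3A in HEK293T cells is a description and is not read against 0.

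In Flp-In T-REx 293 cells, where no Flp-In difference had been used to choose TOR3A, all 6 genes were tested. TOR3A had 159 and 126 CPM in FLP, 157 and 156 in FLP_TET, 135 and 131 in RPRD1B_FL, and 161 and 138 in RPRD1B_FL_TET. All 4 group means lay between 133 and 156 CPM, in the order FLP_TET, RPRD1B_FL_TET, FLP and RPRD1B_FL, and the libraries of each pair of neighbours in that order overlapped. The log2 fold change was -0.08 (SE 0.16, 95% interval -0.40 to 0.25, edgeR adjusted p = 0.938) in RPRD1B_FL_TET against FLP_TET. It was -0.09 (SE 0.16, adjusted p = 0.841) in RPRD1B_FL against FLP. With tetracycline it was 0.13 in the parent line (SE 0.16, adjusted p = 0.647) and 0.15 in the RPRD1B_FL line (SE 0.16, adjusted p = 0.874), and the difference between those responses was 0.02 (SE 0.22, 95% interval -0.45 to 0.48, adjusted p = 0.995). RPRD1B itself rose by 1.34 on the log2 scale in RPRD1B_FL_TET against FLP_TET (SE 0.19, edgeR adjusted p = 0.0003225), and RPRD1A fell by 1.11 (SE 0.2, adjusted p = 0.004629), so the comparison was one in which other genes passed the test. The RPRD1A call was lost when single libraries were left out (adjusted p of up to 0.128), and the RPRD1B call was kept (up to 0.0341).

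None of the 6 genes passed the edgeR test in any of the 5 Flp-In comparisons. The background of called genes was 1.11% of 11948 in RPRD1B_FL_TET against FLP_TET, 1.18% in RPRD1B_FL against FLP, 1.02% in FLP_TET against FLP, and 0% both in RPRD1B_FL_TET against RPRD1B_FL and in the test of the difference between tetracycline responses. The counts at an unadjusted edgeR p under 0.05 were also 0 of 6 in each, beside 11.3% of the values over all genes tested. DESeq2 called 0 of the 6 in each, beside 88, 106, 250, 0 and 0 of all 11948 genes in the order above. The lowest adjusted p belonged to TOR1AIP2 in FLP_TET against FLP, at 90.5 and 85.7 CPM without and 79.5 and 66.4 CPM with tetracycline (log2 fold change -0.28, SE 0.18, edgeR adjusted p = 0.358). With a correction for transcript GC content, the TOR1AIP2 value was -0.015. Across genes, deviations from the Flp-In mean correlated with GC content in opposite directions in the 2 groups. Spearman's rho was -0.55 and -0.37 in the FLP libraries and 0.31 and 0.46 in the FLP_TET libraries. The intervals of TOR1B and TOR2A in these comparisons were wide, as from -0.47 to 0.78 and from -0.60 to 0.83 in RPRD1B_FL_TET against FLP_TET, and they do not show that these levels were the same. Simulated 2-fold changes were called in 86% of genes in that comparison, over 11736 genes, with 12 unchanged genes called as well. The limits given above for the simulation hold for this share too.

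The 2 cell lines differed in the levels of some members, on CPM scaled over all 24 libraries. TOR1AIP2 had 66.4 to 93.3 CPM in the 8 Flp-In libraries and 122 to 153 CPM in the 16 HEK293T libraries. TOR1AIP1 had 12.2 to 16.9 CPM and 19.6 to 34.1 CPM. TOR1A went the other way, with 37.8 to 46.2 CPM in Flp-In and 23.4 to 36.7 CPM in HEK293T cells. TOR3A in Flp-In cells, at 126 to 161 CPM, lay below every HEK293T library not given RPRD2 siRNA and within or just below the range of those given it. For 3 of the 6 genes the libraries of the lines did not overlap, and 18.4% of the 11107 genes tested in both lines separated in this way. TOR1AIP1 and TOR1AIP2 stayed apart under each of the 3 other scalings, whereas the TOR1A ranges overlapped on library size alone (24.6 to 38.1 CPM in HEK293T and 37.3 to 44 CPM in Flp-In) and with TMM within each line (24.2 to 37.4 and 36.3 to 44.2 CPM). The lines also differed in treatment, since every HEK293T library was transfected with siRNA and no Flp-In library was labelled so, and the share of reads outside genes was 40.48% to 48.47% in HEK293T and 30.4% to 33.24% in Flp-In libraries, so line, treatment and library make-up cannot be told apart.

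The genes around TOR3A on chromosome 1 were examined with the same fits. FAM20B, which encodes a kinase that phosphorylates xylose in proteoglycan linkers, ends 5.5 kb before the RefSeq TOR3A gene and had a pooled log2 fold change of -0.07 (SE 0.13). ABL2, which encodes a nonreceptor tyrosine kinase, lies 3.3 kb after it and stood at 0.17 (SE 0.10). RASAL2, RALGPS2 and SOAT1 were at -0.09, -0.13 and 0.16. Thus 0 of these 5 neighbours passed the edgeR test, 0 had an unadjusted p under 0.05, and their values ran from -0.13 to 0.17. TOR3A was selected on its value of -0.65, so no contrast with it is drawn. The neighbours of the TOR1A with TOR1B and TOR1AIP1 with TOR1AIP2 pairs brought the number of neighbours to 14, and 0 of 14 were called, with values from -0.13 to 0.5. Of all 11834 genes, 2 were called (0.0169%) and 397 had an unadjusted edgeR p under 0.05. Counts of 0 among 5 or 14 genes are thus near the background.

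**Figure D5:**
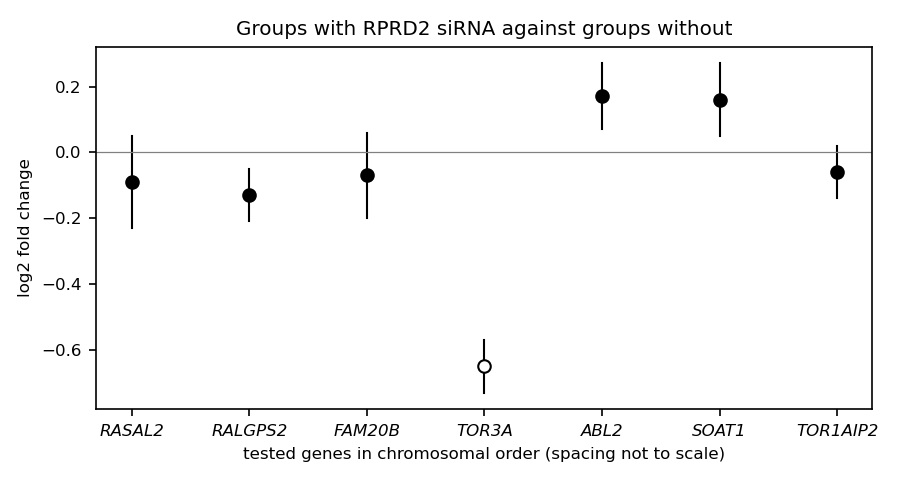
Pooled log2 fold change with RPRD2 siRNA (vertical axis) of the tested genes on either side of TOR3A, in chromosomal order from left to right, with lines of 1 SE. TOR3A (open, selected, with its test not used) is at -0.65 and its neighbours run from -0.13 to 0.17.

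Genes whose level followed TOR3A most closely were ranked by Pearson's r of log2(CPM + 1) across libraries, as a description, since these libraries share scaling, treatment and the selection of TOR3A. Over the 16 HEK293T libraries and 8729 genes with a mean of at least 10 CPM, RPRD2 ranked first (r = 0.94). It was followed by GANAB (0.76), GATAD2B (0.75), AKIRIN1 (0.73) and TRIR (0.73). RPRD2 stood well above the next genes, whereas none of the other members was near the top: TOR1AIP2 had r = 0.39, TOR1B 0.03, TOR1AIP1 -0.15 and TOR1A -0.34, and TOR2A was under 10 CPM and not ranked. Over the 8 Flp-In libraries the 5 genes with the highest r among 8808 were EPHB4 (0.96), CHP1 (0.96), KDM6B (0.95), MLXIPL (0.94) and HOXC9 (0.93), none of which is among the first 5 in HEK293T, and RPRD2 ranked 271st with r = 0.66.

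Further genes of the pathway were taken from lists of nuclear envelope proteins, the lipin pathway that shapes membrane lipids there, ER quality control, other AAA+ ATPases and the interferon response. In the 8 HEK293T comparisons none of the tested genes of these lists passed the edgeR test: 0 of 20 nuclear envelope genes, 0 of 5 lipin pathway genes, 0 of 16 ER quality control genes, 0 of 18 AAA+ ATPases and 0 of 13 interferon response genes. DESeq2 also called 0 in each list. Of all 11834 genes, edgeR called 0.00845% to 0.0169% and DESeq2 called 1 to 5 genes in a comparison, so these counts are near the background. At an unadjusted edgeR p under 0.05, summed over the 8 comparisons, there were 11, 0, 5, 2 and 9 values in that order, or 6.88%, 0%, 3.91%, 1.39% and 8.65% of the values of each list, beside 3.86% over all genes tested. With RPRD2 siRNA the median log2 fold changes were -0.08, 0.01, -0.05, -0.05 and -0.10, beside -0.01 over all genes tested. In that comparison 2 of 20, 3 of 5, 3 of 16, 6 of 18 and 1 of 13 genes were above 0, beside 47.9% of all genes tested. The interferon response values ran from -0.52 to 0.35, and the other names of the 35 on that list did not enter the fit.

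In Flp-In cells 2 genes of the lists passed the edgeR test, in comparisons where 1.11% and 1.02% of all genes tested were called. BST2, an interferon-induced membrane protein also called tetherin, fell by 1.12 on the log2 scale in RPRD1B_FL_TET against FLP_TET (SE 0.23, edgeR adjusted p = 0.01179), and its call was lost when single libraries were left out, with an adjusted p of up to 0.225. ATAD1, an AAA+ ATPase that removes misplaced proteins from the outer mitochondrial membrane, fell by 0.93 in FLP_TET against FLP (SE 0.23, adjusted p = 0.04995), and this call was lost under DESeq2 (adjusted p = 0.103), with a GC correction (0.0687), with the replicate number as a block (0.0563) and without single libraries (up to 0.629). The other lists had 0 genes called by edgeR there. DESeq2 called 1 nuclear envelope, 1 lipin pathway, 0 ER quality control, 2 AAA+ and 1 interferon gene over the 5 Flp-In comparisons. Of all 11948 genes it called 88 in RPRD1B_FL_TET against FLP_TET, 106 in RPRD1B_FL against FLP and 250 in FLP_TET against FLP. It called 0 in RPRD1B_FL_TET against RPRD1B_FL and 0 for the difference between tetracycline responses. At an unadjusted edgeR p under 0.05 there were 7, 4, 5, 10 and 9 values, or 7%, 16%, 5.88%, 11.1% and 12% of the values of each list, beside 11.3% over all genes tested.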

How the data were processed

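RNA of 24 human cell-line libraries in 12 groups of 2 was measured with a QuantSeq 3′ REV kit, which reads transcripts from their 3′ ends, per the labels' protocols. The tables deposited by the authors hold raw read counts, 1 value per gene name. STAR, HTSeq, FastQC, DESeq2 and the build GRCh38 are named in the submitters' processing notes, and the annotation and strand setting are not given in the sources used here. The 5 closing rows for reads outside genes held 30.4% to 48.47% of reads and were left out.

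Counts were fitted per cell line with edgeR 4.0.16 in R 4.3.3 (limma 3.58.1): TMM scaling, filterByExpr (minimum count 10, minimum total 15), 1 coefficient per group, the quasi-likelihood test, and Benjamini-Hochberg adjustment over all genes in the fit (11834 in HEK293T, 11948 in Flp-In), with a call at an adjusted p under 0.05. SE is the size of the log2 fold change divided by the root of the F statistic, and SD is over 2 libraries. CPM use TMM factors over all 24 libraries. Correlations used log2(CPM + 1) and are given with no p, although a permutation test was planned, because the libraries are not exchangeable. Counting error sets the floor of 3 counts. The fit was tested on simulated data. GENCODE release 29 gave gene positions and GC content, and RefSeq (GRCh38.p14) the promoters and neighbours.

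The members and gene lists were chosen with earlier results of these data known. Genes named are the 6 members, TOR4A, the RPRD genes, called genes of the lists (up to 3 per list), up to 3 neighbours on each side, and the 5 genes most like TOR3A per cell line; other markers named were chosen after their values were seen. TOR3A stayed in the HEK293T fits with all other genes, but its p-values there were not used. Alternatives were RLE factors, library size alone, DESeq2 1.42.0, no filter, a minimum mean count of 50, the compared groups fitted alone, the replicate number as a block, pseudocounts of 0.1 and 5, TMM within a cell line, and leaving out each library. A GC correction, the GC correction with the block, and the block without the second RPRD1A_RPRD2_KD library were added after seeing the data.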

Additional observations from a re-analysis of the deposited data

How the results depend on the processing

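None of the tested members (all 6 in Flp-In cells, all but TOR3A in HEK293T cells) was called in the 13 comparisons under any alternative run. A reversal was counted for them only where a result was called, so none could be counted. The lowest edgeR or DESeq2 adjusted p of a tested member under any alternative was 0.244, for TOR1AIP2 in FLP_TET against FLP with only the groups compared. Of 1711 recomputed member values, 110 changed sign without being called. The pooled TOR3A log2 fold change of -0.65 lay between -0.673 and -0.64 under the other settings and between -0.694 and -0.606 when single libraries were left out. The correlation of TOR3A with RPRD2 among libraries given RPRD2 siRNA ranged from 0.88 to 0.91, and on library size alone it was 0.12 among those not given it and 0.47 in Flp-In cells.

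The criterion for pairing by replicate number, a correlation over 0.1 in every pair of groups, was not met, but HEK293T libraries with the same number deviated together: the mean correlation was 0.34, with 26 of 28 pairs over 0.1, and the 2 exceptions (lowest -0.012) both involve RPRD1A_RPRD2_KD. Reads outside genes made up 45.64% to 48.47% in HEK293T libraries numbered 1 and 40.48% to 42.11% in those numbered 2. In Flp-In cells the mean was -0.02, with 1 of 6 over 0.1. With the replicate number as a block, the pooled TOR3A value was -0.646 (-0.673 also without the second RPRD1A_RPRD2_KD library), 0 tested members were called in each comparison, and the number of AAA+ ATPases called in FLP_TET against FLP went from 1 to 0.

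The genome-wide number of calls was less stable, and the cause was not tested. Over all alternatives it ranged from 2 to 117 in the pooled comparison (main value 2, with the block 3). Against CTRL it ranged from 1 to 40 in RPRD1A_KD (main 1, block 1), 0 to 73 in RPRD1B_KD (1, 2), 0 to 167 in RPRD2_KD (1, 2), 1 to 123 in RPRD1A_RPRD1A_KD (2, 9), 1 to 573 in RPRD1A_RPRD2_KD (1, 13), 0 to 25 in RPRD1B_RPRD2_KD (2, 5) and 1 to 129 in RPRD1A_RPRD1B_RPRD2_KD (2, 8). In Flp-In cells it ranged from 28 to 269 in RPRD1B_FL_TET against FLP_TET (133, 121), 40 to 392 in RPRD1B_FL against FLP (141, 126), 0 to 1307 in FLP_TET against FLP (122, 1), 0 to 74 in RPRD1B_FL_TET against RPRD1B_FL (0, 0) and 0 to 5 for the difference between tetracycline responses (0, 0).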
